A study of Homo sapiens with 6 samples.

Results

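The 9 genes described here write, maintain, erase or metabolically feed DNA methylation: the DNA methyltransferase genes DNMT1, DNMT3A and DNMT3B, the maintenance partner UHRF1, the dioxygenase genes TET1, TET2 and TET3, and the isocitrate dehydrogenase genes IDH1 and IDH2. They were taken by name, with no threshold on their values, from a table of reads on RefSeq protein accessions, in which each accession of a gene is a row of its own. The 9 genes held 54 of the 109018 rows and were 9 of the 19053 genes to which a row could be matched. The RNA-seq compared K562 cells, an established erythroid-like line from chronic myeloid leukemia that carries the BCR-ABL fusion, whose shRNA targets lncRNA-IIRX (sh-lncRNA-IIRX, 3 libraries) with K562 cells whose shRNA targets luciferase (sh-luc, 3 libraries). Both groups were stable lines made by infection with a GFP-marked lentiviral hairpin vector and had no other treatment, so that each group rests on cells carrying a single hairpin. The study calls the targeted transcript lncRNA-IUR-5, a noncoding RNA induced by imatinib. That RNA was not analysed here because the rows are protein accessions, so the knockdown itself was not checked.

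The hairpin is shown because it is all that distinguishes the groups by design. Its target, as listed in the supplement of the study, is 21 bases long, with no part marked by capitals.

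sh-IUR-5 target: gctagtatcaggtttaaatag

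Methylation of cytosine at CpG dinucleotides is set down on unmethylated DNA by DNMT3A and DNMT3B and copied after replication by DNMT1, which UHRF1 guides to hemimethylated sites. The TET enzymes oxidize methylcytosine in a reaction that consumes 2-oxoglutarate, and the oxidized bases can then be replaced by base excision repair. IDH1 in the cytosol and IDH2 in mitochondria make 2-oxoglutarate from isocitrate. In leukemia this machinery is known from recurrent mutations of DNMT3A, TET2, IDH1 and IDH2, none of which was examined here.

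The libraries held 21023739 to 31481109 reads, and the largest was library 1 of sh-lncRNA-IIRX. In the library descriptions, library 1 of each group carries the series number 1 and libraries 2 and 3 carry the series number 2. Libraries 2 and 3 of a group differ only in a second number after it. What the numbers stand for is not stated, nor whether libraries 2 and 3 come from separate cultures. Levels below are RPKM (reads per kilobase of row length, scaled to the reads of the library) summed over a gene's rows and divided by TMM factors, the scaling of edgeR, which ran from 0.9216 to 1.116. Of the K562 erythroid markers, 12 were tested, 7 fell and 3 rose, and their summed level was 27260 to 30100 RPKM in sh-luc against 18620 to 19870 in sh-lncRNA-IIRX. The defining lymphoid markers CD3G, CD79B and MS4A1 had no read, and the summed level of that list was 3.43 to 4.36 against 2.44 to 3.11. Of the monocyte and granulocyte markers, MPO, ELANE, S100A8, S100A9 and FCGR3A had no read, and the summed level, nearly all LYZ, was 83.9 to 99.9 against 80.8 to 90.4. The part of the erythroid difference in the results below was not tested.

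By edgeR's quasi-likelihood test on summed reads, 4 of the 9 genes had an adjusted p under 0.05, and all 4 were higher in sh-lncRNA-IIRX: DNMT3B, TET2, TET3 and IDH1. Over all 11556 genes tested, 43.7% passed, 23.2% as higher and 20.4% as lower, so 4 of 9 is near the share of the whole table. A log2 fold change above 0 was found for 8 of the 9 genes, against 52% of all genes, and IDH2 was the exception. For 5 genes (the same 4 and TET1) every sh-lncRNA-IIRX library lay above every sh-luc library, which held for 28.4% of all genes. With the series number as a term in the fit, 8 of the 9 passed, 7 as higher and IDH2 as lower, against 55.9% of all genes in that fit. DNMT1 did not pass. The median log2 fold change of all genes was 0.02 with TMM factors and 0.23 when libraries were scaled by total reads alone, and fold changes below are read against the first of these. With total reads alone, 80.4% of all called genes were higher, against 53.2% with TMM factors, and 8 of the 9 genes were called, all higher, against 49.1% of all genes.

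**Figure D1:**
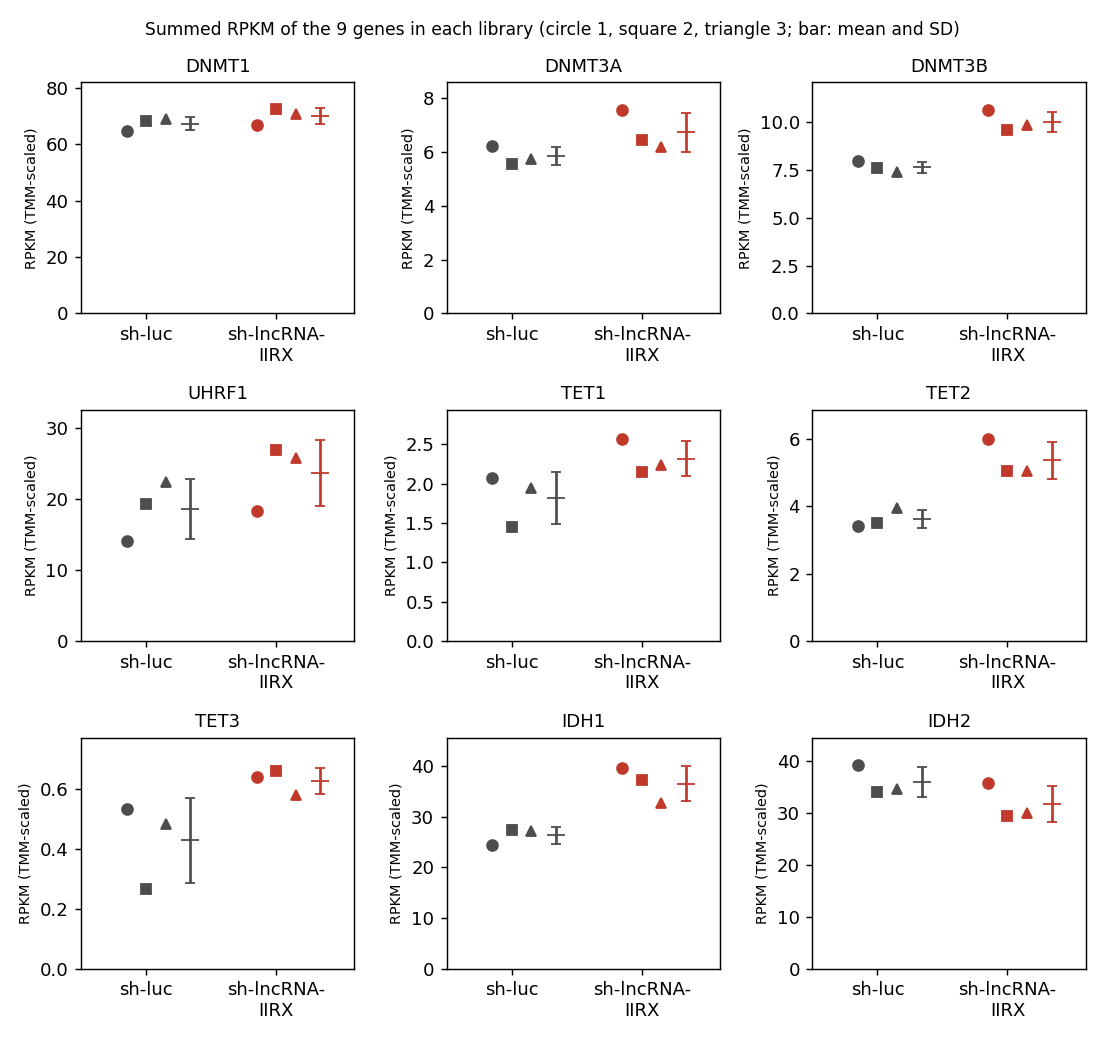
Level of each of the 9 genes (y axis, summed RPKM divided by the TMM factor, starting at 0) in the 3 sh-luc (grey) and 3 sh-lncRNA-IIRX (red) libraries, with the mean and SD beside the points. The groups are separate for DNMT3B, TET1, TET2, TET3 and IDH1, and library 1 (circle) is the lowest of its group for UHRF1, at 14.03 and 18.3.

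DNMT1, the maintenance methyltransferase, was by far the most abundant of the 9. Its level was 64.5, 68.2 and 68.8 RPKM in sh-luc and 66.8, 72.3 and 70.7 in sh-lncRNA-IIRX. The groups overlapped, library 1 being the lowest in each. The means were 67.2 ± 2.33 and 69.9 ± 2.79 (SD, n = 3), and the log2 fold change of 0.06 ± 0.07 (SE, edgeR adjusted p = 0.514) had a 95% interval from -0.09 to 0.21. DNMT1 accounted for 78.6% to 84.0% of the summed level of the 3 methyltransferase genes.

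DNMT3A and DNMT3B are the de novo methyltransferases. DNMT3B read 7.97, 7.59 and 7.38 RPKM in sh-luc and 10.6, 9.61 and 9.85 in sh-lncRNA-IIRX, so that the lowest value of the second group exceeded the highest of the first. DNMT3B rose 1.32-fold, a log2 fold change of 0.40 ± 0.09 (SE, edgeR adjusted p = 0.00283). DNMT3A read 6.25, 5.57 and 5.75 RPKM in sh-luc and 7.57, 6.44 and 6.21 in sh-lncRNA-IIRX. The groups overlapped by a small margin, because library 3 of sh-lncRNA-IIRX lay just under library 1 of sh-luc. Its log2 fold change of 0.24 ± 0.10 did not pass (edgeR adjusted p = 0.0768), and it was 0.14 without library 1 of sh-lncRNA-IIRX and 0.53 when the row with the most reads stood for the gene (adjusted p = 0.0614).

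UHRF1, which reads hemimethylated CpG and ubiquitinates histone H3, varied most between the libraries of a group among the writers. It read 14.03, 19.3 and 22.4 RPKM in sh-luc and 18.3, 26.9 and 25.8 in sh-lncRNA-IIRX. Library 1 was the low library in both groups, by 0.57 and 0.53 on the log2 scale against the mean of libraries 2 and 3. The overall log2 fold change was 0.35 ± 0.17 (SE) and did not pass (edgeR adjusted p = 0.107). Within series 1 the difference was 0.38 on the log2 scale and within series 2 it was 0.34, where both sh-lncRNA-IIRX libraries lay above both sh-luc libraries. With the series number as a term, the adjusted p of the edgeR fit was 4.02e-05, whereas without library 1 of sh-luc the log2 fold change was 0.18 (adjusted p = 0.344). It also passed without library 3 of sh-luc or without library 1 of sh-lncRNA-IIRX, at 0.50 in each case.

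The erasers were expressed at lower levels than the writers, in the order TET2, TET1, TET3. TET2 read 3.43, 3.51 and 3.95 RPKM in sh-luc and 6.002, 5.07 and 5.04 in sh-lncRNA-IIRX. The groups did not overlap, and library 1 of sh-lncRNA-IIRX was the highest of the 6. TET2 rose 1.52-fold, a log2 fold change of 0.60 ± 0.10 (SE, edgeR adjusted p = 0.000521) that exceeded the log2 fold change of 90.2% of all genes. When each library's trend on coding GC content and coding length was removed, it was 0.28 (adjusted p = 0.0341). The coding sequence of TET2, at 6069 bases, is longer than that of 97.3% of the genes compared, and its GC content of 45.2% is above that of 26.1%.

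TET1 read 2.07, 1.44 and 1.94 RPKM in sh-luc and 2.57, 2.15 and 2.24 in sh-lncRNA-IIRX. The groups were separated, narrowly, by library 1 of sh-luc and library 2 of sh-lncRNA-IIRX. Its log2 fold change of 0.34 ± 0.13 (SE) stood just outside the threshold (edgeR adjusted p = 0.0558). It was 0.21 without library 2 of sh-luc and passed at 0.43 without library 1 of sh-luc (adjusted p = 0.0314). With the GC and length trends removed, the log2 fold change of TET1 was 0.0034 (adjusted p = 0.986), its coding sequence being 6408 bases long with 44.2% GC.

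TET3 was at the limit of what these libraries count, with 56, 26 and 43 reads in sh-luc and 109, 85 and 72 in sh-lncRNA-IIRX. As levels these were 0.535, 0.267 and 0.485 RPKM against 0.641, 0.662 and 0.579, without overlap. TET3 was 1.51-fold higher, a log2 fold change of 0.59 ± 0.22 (SE, edgeR adjusted p = 0.0483) with a 95% interval from 0.11 to 1.07. The call was lost when any library except library 1 of sh-luc was left out: the log2 fold change was 0.37 without library 2 of sh-luc, 0.64 without library 3, and 0.58, 0.52 and 0.64 without libraries 1, 2 and 3 of sh-lncRNA-IIRX. It was lost also in DESeq2 (0.57, adjusted p = 0.0745), with RLE factors in edgeR (0.57, adjusted p = 0.0543) and with the GC and length trends removed (0.52, adjusted p = 0.0664), at log2 fold changes close to the first.

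Summed over the 3 TET genes, the level was 5.22 to 6.38 RPKM in sh-luc and 7.87 to 9.21 in sh-lncRNA-IIRX, of which TET2 made up 56.8% to 67.2%. The sum over the 3 methyltransferase genes was 78.7 to 81.9 RPKM against 85.1 to 88.3. Neither pair of ranges overlapped, which held, with sh-lncRNA-IIRX higher, for 28.4% of all single genes. DNMT1 made up 78.6% to 84.0% of the methyltransferase sum, and its own groups overlapped.

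Of the isocitrate dehydrogenases, IDH1 passed as higher, and IDH2, with a negative log2 fold change, did not pass. IDH1, the cytosolic enzyme, read 24.3, 27.4 and 27.2 RPKM in sh-luc and 39.6, 37.2 and 32.8 in sh-lncRNA-IIRX, with no overlap. IDH1 rose 1.39-fold, a log2 fold change of 0.48 ± 0.09 (SE, edgeR adjusted p = 0.00122). IDH2, the mitochondrial enzyme, read 39.2, 34.04 and 34.6 RPKM in sh-luc and 35.8, 29.4 and 30.1 in sh-lncRNA-IIRX. The groups overlapped through library 1, the highest of each. The log2 fold change of IDH2 was -0.18 ± 0.10 (SE, edgeR adjusted p = 0.153). Its value was 0.03 with total reads alone, and it passed as lower, at -0.28, without library 1 of sh-lncRNA-IIRX (adjusted p = 0.0211), while without library 1 of sh-luc it was -0.11 (adjusted p = 0.421).

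**Figure D2:**
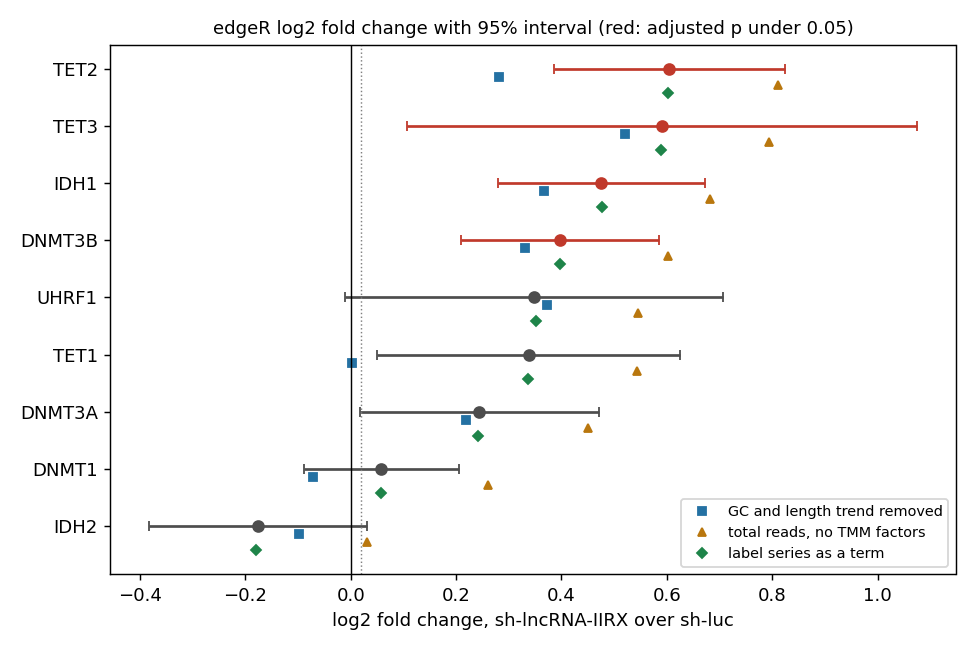
edgeR log2 fold change of sh-lncRNA-IIRX over sh-luc (x axis) for each gene, circles with 95% interval, red where the adjusted p was under 0.05; squares, triangles and diamonds give the value with the GC and length trend removed, with total reads alone and with the series number as a term. The dotted line is the median of all genes, 0.02. TET1 moved from 0.34 to 0.0034 and TET2 from 0.60 to 0.28 with the trend removed.

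Ratios of a pair of the genes within each library do not depend on how libraries are scaled. A library's trend on coding GC content and length need not cancel in them. Coding GC was 44.6% for IDH1 and 58.3% for IDH2, and 45.2% for TET2 and 56.3% for DNMT1. With the trends removed, the log2 fold changes were 0.37 for IDH1 and -0.10 for IDH2, against 0.48 and -0.18. For TET2 and DNMT1 they were 0.28 and -0.07, against 0.60 and 0.06. The pairs were chosen after the values were seen, and with 3 libraries against 3 the smallest p of an exact two-sided permutation test is 0.1. The ratio of IDH1 to IDH2 was 0.620, 0.805 and 0.786 in sh-luc and 1.11, 1.26 and 1.09 in sh-lncRNA-IIRX (exact permutation p = 0.1). IDH2 was thus the more abundant of the pair in every sh-luc library and IDH1 in every sh-lncRNA-IIRX library. The ratio of DNMT3B to DNMT1 was 0.124, 0.111 and 0.107 against 0.159, 0.133 and 0.139, and that of TET2 to DNMT1 was 0.0531, 0.0514 and 0.0574 against 0.0898, 0.0701 and 0.0714 (exact permutation p = 0.1 for each). Neither overlapped. The ratio of UHRF1 to DNMT1 overlapped between the groups (exact permutation p = 0.3), as did those of DNMT3A to DNMT1 (exact permutation p = 0.5) and of TET2 to TET1 (exact permutation p = 0.4). The ratio of DNMT3B to DNMT3A did not, at 1.28, 1.36 and 1.28 against 1.40, 1.49 and 1.59 (exact permutation p = 0.1). None of these 7 ratios can reach a p under 0.05, before or after adjustment.

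Within series 1, a single library against a single library, and within series 2, the direction was the same for each of the 9 genes, as it was for 83.4% of all genes. TET2 differed by 0.81 on the log2 scale in series 1 and by 0.44 in series 2, and IDH1 by 0.70 and 0.36. DNMT3B differed by 0.42 and 0.38. For TET3 the larger difference was in series 2, 0.72 against 0.26. In series 2 both sh-lncRNA-IIRX libraries lay above both sh-luc libraries for all of the 9 genes but IDH2, and for 37.3% of all genes.

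By mean level over the 6 libraries the order was DNMT1 (68.6 ± 2.75 RPKM), IDH2 (33.9 ± 3.67), IDH1 (31.4 ± 6.10), UHRF1 (21.1 ± 4.87), DNMT3B (8.84 ± 1.36), DNMT3A (6.30 ± 0.706), TET2 (4.50 ± 1.03), TET1 (2.07 ± 0.372) and TET3 (0.528 ± 0.144). IDH2 exceeded IDH1 in 3 of the 6 libraries. The ranges of IDH1 and UHRF1, of DNMT3B and DNMT3A, and of DNMT3A and TET2 touched over all 6 libraries, although the first of each pair was the higher in each single library. Among all genes tested, DNMT1 lay at the 84.5th percentile of level, TET2 at the 31.8th and TET3 at the 5.07th. Rows whose accession matched no gene held the remainder of the reads, and retired accessions of a member could be among them, so these levels may be too low.

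Single rows were looked at because each stands for a protein isoform. Of the 54 rows, 24 reached a mean of 1 RPKM and were tested, 11 rose and 0 fell in edgeR at an adjusted p under 0.05, against 19.2% higher and 18.1% lower among all rows tested. The rows that rose were all 3 of IDH1 (log2 fold change 0.40 to 0.56), both tested rows of TET2 (0.67 and 0.72), 4 of 6 of DNMT3B and 2 of 6 of UHRF1. Both TET2 rows had means just over the minimum, 1.13 and 1.10 RPKM, and lay under it in every sh-luc library. They were thus tested only through their sh-lncRNA-IIRX values. Without that minimum, in the fit of every row with a read, they were at 0.61 and 0.67 (edgeR adjusted p = 5.46e-05 and 1.06e-05). None of the 4 rows of DNMT1 (0.03 to 0.10) or the 3 of IDH2 (-0.17 to -0.16) passed. No row of DNMT3A, TET1 or TET3 reached the minimum. In the fit of every row with a read, 12 of the 54 rows rose, against 10.7% of all such rows, and 2 of them were rows of TET1.

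The rows of a gene are not independent measures. In 3221 sets of rows with equal length in a gene, reads were set against an even random split among the rows. The median chi-square per degree of freedom was 0.962, and 81.1% of the sets were under 1.5. The 3 IDH1 rows of 1245 bases gave 0.693. Rows of unequal length were not in this comparison. The fold changes of a gene's rows are therefore not taken as separate evidence. Tested against the other rows of their gene with edgeR's diffSpliceDGE, a test added after the data were seen, 0 of the 51 member rows with enough reads passed, against 0.85% of all rows. The member row with the lowest p was that of the TET1 accession XP_016872177.1, which took 11.2%, 9.66% and 9.33% of the reads of TET1 in sh-luc and 18.4%, 15.6% and 14.8% in sh-lncRNA-IIRX (edgeR adjusted p = 0.398). Another TET1 accession, XP_011538508.1, went from 35.3%, 26.9% and 28.5% to 21.3%, 24.0% and 23.0% and did not pass. For TET2, the 3 accessions of 5709 to 6009 bases had log2 fold changes of 0.61 to 0.67 in the fit of every row, and the 2 shorter ones had 0.30 and 0.26, a difference that diffSpliceDGE did not call.

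**Figure D3:**
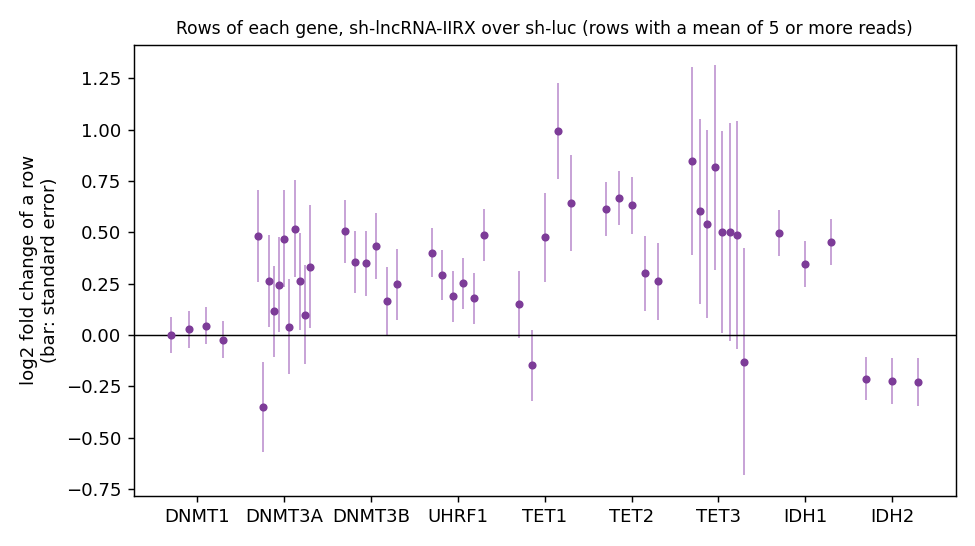
edgeR log2 fold change (y axis, bar: standard error) of each row with a mean of at least 5 reads, by gene (x axis), in the fit of every row with a read. The 3 rows of IDH1 lie above 0 and the 3 of IDH2 below it, whereas rows of DNMT1 (-0.02 to 0.05), DNMT3A, TET1 and TET3 lie on both sides.

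The genes lie on GRCh38 at chr19:10133342-10231286 (DNMT1, minus strand), chr2:25227855-25342590 (DNMT3A, minus), chr20:32762385-32809359 (DNMT3B, plus), chr19:4903080-4962154 (UHRF1, plus), chr10:68560337-68694487 (TET1, plus), chr4:105145875-105279816 (TET2, plus), chr2:73984910-74108176 (TET3, plus), chr2:208236229-208266074 (IDH1, minus) and chr15:90083045-90102477 (IDH2, minus). Exonic bases are shared by DNMT1 with S1PR2 on the same strand, by IDH1 with the antisense lncRNA IDH1-AS1, and by TET3 with the lncRNA ENSG00000235499. Whether counting used the strand is not given in the sources used here, so reads in shared bases could come from either gene.

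RefSeq start sites of the 9 genes gave 21 promoter windows of 300 bases (GRCh38.p14, 250 bases before to 50 after the start). They held 3 to 46 CpG dinucleotides, and 15 of the 21 held more than the median of 14 over 34796 windows. For DNMT1, DNMT3B, UHRF1, IDH1 and IDH2 every window lay inside the gene span given above, so the outermost start of that span was not searched. The only DNMT3B window, with 3 CpG, was chr20:32779602-32779901, and the only IDH2 window, with 6, was chr15:90100572-90100871. Some windows of DNMT3A, UHRF1 and TET1 overlap each other, so the 21 windows are not all separate sequence. The letters TTTCGCGC or TTTGGCGC, an E2F site on either strand, occurred in the DNMT1 window and in the second UHRF1 window, and in 1.14% of all windows. These windows are shown because they are the only 2 with the match, marked in capitals, at chr19:10194904-10195203 (minus strand) and chr19:4909894-4910193 (plus strand).

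DNMT1: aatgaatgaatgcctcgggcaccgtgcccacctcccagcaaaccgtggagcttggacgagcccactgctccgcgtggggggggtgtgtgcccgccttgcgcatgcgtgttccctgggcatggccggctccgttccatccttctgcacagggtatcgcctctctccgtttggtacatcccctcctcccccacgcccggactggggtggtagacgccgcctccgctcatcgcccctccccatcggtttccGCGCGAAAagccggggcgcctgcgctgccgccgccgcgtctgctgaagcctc

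UHRF1, second start: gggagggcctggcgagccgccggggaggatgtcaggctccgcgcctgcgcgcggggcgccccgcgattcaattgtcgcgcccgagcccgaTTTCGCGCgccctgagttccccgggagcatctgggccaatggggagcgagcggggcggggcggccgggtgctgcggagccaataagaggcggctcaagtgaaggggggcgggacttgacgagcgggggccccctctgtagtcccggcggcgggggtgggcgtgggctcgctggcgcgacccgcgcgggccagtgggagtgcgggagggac

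The first windows of TET2 (chr4:105145625-105145924, plus strand) and IDH1 (chr2:208255022-208255321, minus strand) are shown as those of 2 of the 4 genes that rose. Capitals mark CpG, of which the TET2 window holds 13 and the IDH1 window 20.

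TET2, first start: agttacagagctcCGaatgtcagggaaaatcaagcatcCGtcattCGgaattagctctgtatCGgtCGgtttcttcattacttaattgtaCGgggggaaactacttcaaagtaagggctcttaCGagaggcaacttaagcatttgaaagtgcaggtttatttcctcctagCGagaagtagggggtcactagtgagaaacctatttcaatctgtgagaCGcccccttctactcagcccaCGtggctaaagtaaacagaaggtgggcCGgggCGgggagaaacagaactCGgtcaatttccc

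IDH1, first start: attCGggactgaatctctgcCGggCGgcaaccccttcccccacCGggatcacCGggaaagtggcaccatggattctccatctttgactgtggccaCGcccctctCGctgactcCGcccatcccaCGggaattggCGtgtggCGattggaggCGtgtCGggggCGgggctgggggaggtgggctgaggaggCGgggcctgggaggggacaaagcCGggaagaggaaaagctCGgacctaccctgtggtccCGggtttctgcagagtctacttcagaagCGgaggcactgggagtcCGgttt

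The letters TTCNNNGAA, the core bound by STAT factors, occurred in 0 of the 21 windows and in 7.67% of all windows. CCAAT occurred in 7 of the 21 (5 genes) and in 34.6% of all, and GGGCGG, the GC box, in 13 of the 21 (5 genes) and in 44.9% of all, each searched on both strands. A match is a match of letters and was not tested for binding, and a window without a match says nothing of the factor.

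Other genes of the pathway were taken from lists by function. Of 15 tested partners of methylation, 8 rose and 1 fell, with a median log2 fold change of 0.24 against 0.02 over all genes, of which 23.2% rose and 20.4% fell. UHRF2, the paralog of UHRF1, rose by a log2 fold change of 0.42 (edgeR adjusted p = 0.00302). CDCA7, which targets the remodeler HELLS to nucleosomes, rose by 0.60 (adjusted p = 0.001) and CDCA7L by 0.38 (adjusted p = 0.00128). HELLS itself was at -0.17 (adjusted p = 0.3), and PCNA, the replication clamp, at 0.01 (adjusted p = 0.946). TRIM28, a corepressor that brings in DNMTs, fell by 0.22 on the log2 scale (adjusted p = 0.0249), and DNMT3L, the catalytically inactive cofactor, had too few reads to test. With the GC and length trends removed, 2 of the 15 partners were higher and 3 lower, UHRF2 was at 0.19 (adjusted p = 0.113) and HELLS passed as lower at -0.38 (adjusted p = 0.0187). Without library 3 of sh-lncRNA-IIRX 5 partners passed in all. TRIM28 did not pass without library 2 or 3 of sh-luc or library 3 of sh-lncRNA-IIRX, at -0.21, -0.19 and -0.23.

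The list of methyl-CpG readers takes in the whole MBD family, and whether each member binds methyl-CpG was not checked. Of its 10 genes, 4 rose and 2 fell (median 0.17), 6 in all against 43.7% of all genes. ZBTB33, which encodes Kaiso, had 78, 88 and 73 reads in sh-luc and 374, 251 and 285 in sh-lncRNA-IIRX, a log2 fold change of 1.42 (edgeR adjusted p = 1.48e-05). ZBTB4, another zinc finger reader, rose by 0.53 (adjusted p = 0.0182). MBD3, a NuRD subunit, fell by 0.29 on the log2 scale (edgeR adjusted p = 0.0416). MBD3 did not pass without library 3 of sh-luc (-0.16) or of sh-lncRNA-IIRX (-0.24) or with the GC and length trends removed (-0.05), nor did ZBTB4 without library 3 of sh-luc (0.51) or library 1 of sh-lncRNA-IIRX (0.36). Only 2 genes of the list passed without library 3 of sh-luc and 3 without library 3 of sh-lncRNA-IIRX. With the trends removed 2 were higher and 1 lower, and with total reads alone 6 were higher and 0 lower.

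Of 15 genes for TET partners and base excision repair, 2 rose and 4 fell (median -0.10), which is 40% and near the 43.7% of all genes. Without library 1 or library 2 of sh-luc 3 passed. OGT, the GlcNAc transferase that binds TET proteins, rose by a log2 fold change of 0.64 (edgeR adjusted p = 0.000679), and CXXC5, a TET2-binding protein, by 0.24 (adjusted p = 0.0394). OGT was at 0.37 with the GC and length trends removed (adjusted p = 0.0208). CXXC5 kept its call, among the fits with 1 library left out, only without library 3 of sh-lncRNA-IIRX. It was lost at 0.16 without library 1 of sh-lncRNA-IIRX and at 0.22 to 0.28 without the others, and also with RLE factors (adjusted p = 0.055) and in DESeq2 (adjusted p = 0.0761), and it was 0.44 with the trends removed. XRCC1, a repair scaffold, fell by 0.24 (adjusted p = 0.0146) and APEX1, the abasic endonuclease, by 0.22 (adjusted p = 0.0178). TDG, the glycosylase that removes oxidized methylcytosine, was at -0.10 (adjusted p = 0.34), and passed as lower at -0.22 with the trends removed (adjusted p = 0.0211). APEX1 did not pass without library 1 or 2 of sh-luc or library 3 of sh-lncRNA-IIRX, at -0.20, -0.22 and -0.23, nor XRCC1 without library 2 of sh-lncRNA-IIRX, at -0.24. With total reads alone the list gave 6 higher and 0 lower, so its direction turned with the scaling.

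Of 17 enzymes of 2-oxoglutarate, succinate, fumarate and 2-hydroxyglutarate, 7 rose and 2 fell (median 0.19), which is 52.9% against 43.7% of all genes. GLUD1, glutamate dehydrogenase, rose by 0.50 on the log2 scale (edgeR adjusted p = 0.000222) and CS, citrate synthase, by 0.41 (adjusted p = 0.00094). The 2 that fell were subunits of the NAD-dependent isocitrate dehydrogenase, IDH3B at -0.43 (adjusted p = 0.000827) and IDH3G at -0.28 (adjusted p = 0.0104). IDH3G did not pass without library 3 of sh-luc (-0.24) or with the GC and length trends removed (-0.16). With total reads alone, 10 were higher and 1 lower.

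Of 13 genes of the methyl donor and one-carbon cycle, 7 rose and 1 fell (median 0.30), which is 61.5% against 43.7% of all genes. MAT2A, which makes S-adenosylmethionine, read 72.9, 76.4 and 70.6 RPKM in sh-luc and 113.5, 108.9 and 116.8 in sh-lncRNA-IIRX. The groups did not overlap, and the log2 fold change was 0.63 (edgeR adjusted p = 4.05e-05). AHCY, the hydrolase of S-adenosylhomocysteine, was at -0.0057 (adjusted p = 0.956), but passed as higher, at 0.20, with total reads alone (edgeR adjusted p = 0.037). Its relative AHCYL1 rose by 0.82 (adjusted p = 2.32e-05). MTHFD2, a mitochondrial folate enzyme, fell by 0.49 (adjusted p = 0.00157).

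Of 20 S phase genes, 5 rose and 1 fell (median 0.15), which is 30% against 43.7% of all genes. Among them were POLA1 at 0.43 (edgeR adjusted p = 0.00245) and, lower, CHAF1A at -0.28 (adjusted p = 0.0207). The counts of higher and lower genes were 2 and 2 with the GC and length trends removed, where POLA1 was at 0.12 (edgeR adjusted p = 0.279). They were 13 and 0 with total reads alone, a fit in which 80.4% of all called genes were higher. In all, 16 of the 20 passed with the series number as a term and 12 without library 1 of sh-lncRNA-IIRX, against 6 in the group-only fit. Over all 11556 genes, 6455 passed with the series number, 5003 without that library and 5045 in the group-only fit. CHAF1A did not pass without library 2 or 3 of sh-luc, at -0.27 and -0.24. With total reads alone TRIM28, MBD3, XRCC1, APEX1, IDH3G and CHAF1A did not pass, at -0.09 to -0.01. Of 18 germline genes known to be silenced by promoter methylation, 17 had a row and 9 had no read. Enough reads to test were found for 5, of which 0 rose and 1 fell, which is 20% against 43.7% of all genes. Genes tested from this list were not all silent in these cells. MAGEA3 had means of 83.7 RPKM in sh-luc and 80.7 in sh-lncRNA-IIRX, and MAGEA1 18.1 and 17.7. Methylation was not measured, so the list does not report on it. The gene that fell was SYCP3, of the synaptonemal complex, at -0.89 (edgeR adjusted p = 0.000151).

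Likeness of pattern was measured over the 6 libraries as the Pearson correlation of log2 scaled counts among genes with at least 100 reads on average, as a description, since the points share the group difference and the library differences. DNMT3B was most like DDB1 (r = 0.999), SLC2A3 and CYP51A1, and TET2 most like PRKCA (r = 0.997), FASN and CCDC6. IDH1 was most like FBXO33 (r = 0.995), WWP2 and DCAF17, and IDH2 most like TMEM276-ZFTRAF1 (r = 0.997), GRAMD1A and LAMB2. For DNMT1 the list was PIGW (r = 0.992), E2F1 (r = 0.986) and NDFIP1, and for UHRF1 it was PSAT1 (r = 0.992), E2F1 (r = 0.989) and PIGW. DNMT3A was most like CELSR2, IQGAP3 and SEC14L1, TET1 most like BTG2, NBPF8 and HPCAL1, and TET3 most like FZD5, ZFAT and L3MBTL2. The number of genes with r above 0.95 ran from 19 for TET3 to 672 for DNMT3B, so a high r with 6 points is not particular to a gene.

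The p-values measure the spread between these libraries. Libraries 2 and 3 of each group share a series number, and the labels do not tell whether they are independent. If they are not, the SDs and p-values rest on fewer independent units than libraries. The extraction notes name independent groups of cells, yet both groups were stable lines, and effects of the hairpin and differences between the infected lines cannot be told apart with this design. Fewer cells of a kind and less RNA per cell cannot be told apart either in these bulk samples.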

How the data were processed

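Total RNA of K562 cells (TRIzol) was sequenced in 3 sh-luc and 3 sh-lncRNA-IIRX libraries. The submitters' processing notes name CASAVA 1.8, Trimmomatic 0.32, Bowtie2 2.1.0 and SAMtools 0.1.19 with build hg38. The authors deposited read counts for each RefSeq protein accession, and RPKM that the authors computed from those counts, the row length and the summed reads. The RefSeq release and the use of strand are not given in the sources used here. A second deposited table with the authors' own comparison (pooled reads, fold changes, p and q values) was not used.

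Accessions were matched to genes, version ignored: 70521 rows (64.7%) with 84.4% of reads. Counts were summed per gene, and 11556 genes with a mean of at least 10 reads were tested in edgeR 4.0.16 (R 4.3.3) with TMM factors, glmQLFit and glmQLFTest, group only, Benjamini-Hochberg, two-sided, threshold 0.05. Library size was the sum over all rows. Rows with a mean RPKM of at least 1 (38204) were tested alike. The scripts were tested on simulated data. Alternatives used DESeq2 1.42.0, limma 3.58.1 on log2(RPKM + 0.1), other scalings and filters, and offsets from mgcv 1.9.3 for coding GC and length. With 21023739 to 31481109 reads a library, 3 reads on 1 kb equal 0.0953 to 0.143 RPKM, which bounds counting error only.

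All 9 members are named. From each list the text names the 2 genes with the lowest adjusted p in each direction among those past the threshold, and UHRF2, DNMT3L, TDG, OGT, MAT2A, AHCY, PCNA and HELLS in every case; 2 genes that this rule names are not reported here. The 3 most alike genes of each member are named. The members and lists were chosen with earlier results of these data known. Ratios, differences within a series number and the test between rows of a gene were added after seeing the data. Promoter windows are from RefSeq (GRCh38.p14) and gene positions from GENCODE 44 on hg38.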

Additional observations from a re-analysis of the deposited data

How the results depend on the processing

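DNMT3B, TET2 and IDH1 passed as higher under every alternative run at the 0.05 threshold, with log2 fold changes of 0.33 to 0.60, 0.28 to 0.81 and 0.36 to 0.68. Of the 9 genes, 4 passed in the group-only edgeR fit, 8 with the replicate block (numbers 1, 2 and 3 as a term, not a stated pairing), 8 with the series number, 8 with total reads alone and 3 to 5 when 1 library was left out. Over all genes 5045 passed, 3344 at an adjusted p under 0.01, 6123 with the replicate block, 6455 with the series number, 5674 with total reads alone and 4082 to 5003 with 1 library left out. Same-numbered libraries of the groups deviated from their group means with correlations of 0.535, 0.221 and 0.00954, and library 2 of sh-luc was closest to library 3 of sh-lncRNA-IIRX (0.487), so the numbers were not taken as pairs. Of the rows, 14259 passed, and 11210 to 13582 with 1 library left out. Of the 24 member rows tested 11 passed, 20 with total reads alone, 7 in DESeq2 and 18 in limma. Of the S phase genes 13 passed with the block. Counts of the pathway lists moved by over 1.5 times in 24 cases and by less in 95.

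Direction turned for values near 0. DNMT1 was -0.072 with the GC and length trends removed and -0.073 with the replicate block added. With total reads alone IDH2 was 0.030, TDG 0.098, AHCY 0.20 and HELLS 0.029, and of these only AHCY passed (edgeR adjusted p = 0.037). AHCY ran from -0.047 to 0.031 with 1 library left out, and was 0.00042 among genes with at least 100 reads, 0.084 with the trends removed and 0.085 with the block added. PCNA ran from -0.097 to 0.16 with 1 library left out, and was -0.0082 with RLE factors and -0.0080 in DESeq2. The IDH2 rows NP_002159.2, NP_001276839.1 and NP_001277043.1 were 0.040, 0.028 and 0.026 with total reads alone. In limma they were 0.031, 0.023 and 0.0073 with a pseudocount of 0.1, 0.029, 0.022 and 0.0075 with 1, and 0.031, 0.024 and 0.0072 with 0.01. The DNMT1 row NP_001305660.1 was -0.023 in the fit of every row. The causes were not tested.

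Taking rows by their description was not run, because the table has no description column. TET3 gave no value at a minimum of 100 reads or with a single row per gene. No test of depth was run. TET3 had 26 to 109 reads a library, and no row of DNMT3A or TET1 reached a mean RPKM of 1.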
